A study of Homo sapiens with 13 samples.

Results

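The regions described here are places on the genome where, in the human breast cancer line MDA-MB-231, the coactivators YAP and TAZ and the DNA-binding protein TEAD4 were all found and the AP-1 subunit JUN was not. They were chosen by merging the 4 deposited peak lists wherever peaks overlapped by at least 1 bp and keeping regions with at least 1 YAP, 1 TAZ and 1 TEAD4 peak and no JUN peak. Of 28100 merged regions, 1209 met this rule, which is 4.3% of all regions and 22% of the 5493 regions with YAP, TAZ and TEAD4. They are called JUN-free regions below, meaning only that no JUN peak was listed there. The other 4284, which also hold a JUN peak, are called 4-factor regions.

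The study used chromatin immunoprecipitation and sequencing (ChIP-seq), which recovers the DNA that a protein is cross-linked to. All cells were MDA-MB-231 grown in medium with serum, with no treatment or genetic change named in the labels. There were 2 libraries each with antibodies to YAP, to TAZ (the product of WWTR1), to TEAD4 (labelled TEF-3, another name of the protein) and to JUN, with 2 rabbit IgG and 3 mouse IgG libraries as controls. The authors deposited 1 peak list per factor, which the labels tie to both of its replicates, so no value below has a spread between replicates, and read depth is unknown here. Peak names in the TAZ list carry the tag YAPTAZ, and those in the JUN list a replicate tag of their own. No source used here explains these tags, so which libraries went into the TAZ and JUN lists is known only as far as the labels say. For the same reason, no difference between kinds of region was tested. Intervals on shares are exact binomial (Clopper-Pearson) 95% intervals, and those on medians come from the binomial order statistics. Both cover counting error only and take regions as independent.

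YAP and TAZ are the nuclear effectors of the Hippo pathway, a kinase cascade that keeps them in the cytoplasm when cells are dense or at rest. Neither binds DNA by itself. TEAD proteins are their main DNA-binding partners and recognise a short element known as MCAT. JUN pairs with FOS or other JUN family proteins to form AP-1, which binds its own element and often sits at enhancers that TEAD proteins also occupy. Regions with YAP, TAZ and TEAD4 but without JUN are thus those where the first system was mapped and the AP-1 subunit was not.

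Presence and absence of peaks chose the regions, so their counts and enrichments are given as a description. JUN was missing at 22% of regions with YAP, TAZ and TEAD4, at 19.7% of the 1555 regions with YAP and TAZ but not TEAD4, and at 50.6% of the 2796 with TEAD4 but not both coactivators. Over all 11809 regions with any of the 3 proteins the share was 30.2%. Almost every JUN-free region was a single site: 1202 held exactly 1 peak of each of YAP, TAZ and TEAD4, and 7 held more than 1 peak of some factor. The regions took in 15.7% of the YAP list, 12.4% of the TAZ list and 14.4% of the TEAD4 list, and were 309 to 1811 bp wide with a median of 612 bp (603 to 622).

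In fold enrichment, YAP and TEAD4 at JUN-free regions came close to their levels where JUN was listed, and TAZ was somewhat lower. In −log10 p the gaps were wider for YAP and TAZ. The authors' fold enrichment of the ChIP over IgG, taken at the most enriched peak of a factor in a region, had a median for YAP of 7.92 (7.71 to 8.10) at JUN-free and 8.25 (8.13 to 8.36) at 4-factor regions. The TAZ median was 7.87 (7.66 to 8.09) at JUN-free and 8.64 (8.50 to 8.77) at 4-factor regions, and the TEAD4 median 8.05 (7.86 to 8.28) at JUN-free and 8.29 (8.17 to 8.41) at 4-factor regions. The median −log10 p was 47.2 (45.0 to 48.9) at JUN-free and 53.2 (52.2 to 54.6) at 4-factor regions for YAP. For TAZ it was 48.8 (46.7 to 50.9) at JUN-free and 60.5 (59.1 to 61.9) at 4-factor regions, and for TEAD4 58.8 (56.5 to 61.6) at JUN-free and 61.5 (60.1 to 63.4) at 4-factor regions. On both scales TAZ showed the widest gap of the 3 between both kinds of region, with a JUN-free median fold below the 4-factor median on 21 of 23 chromosomes. For YAP this was so on 14 and for TEAD4 on 12. The 1248 regions with YAP, TAZ and JUN but not TEAD4 were lower, with medians of 6.39 for YAP and 6.48 for TAZ. The middle 50% of JUN-free regions lay between 6.47 and 10.3 for YAP, 6.33 and 10.5 for TAZ, and 6.30 and 10.4 for TEAD4.

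**Figure D1:**
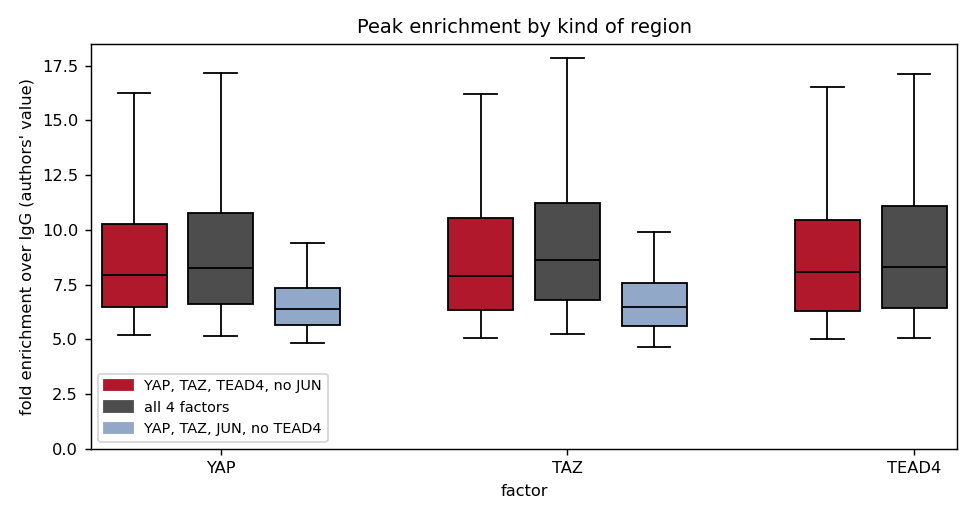
Fold enrichment over IgG, as the authors give it, of YAP, TAZ and TEAD4 peaks in JUN-free regions (red, n = 1209), 4-factor regions (grey, n = 4284) and regions with YAP, TAZ and JUN but not TEAD4 (blue, n = 1248). Boxes span the quartiles with the median as a line, and whiskers run from the 5th to the 95th percentile. The red and grey boxes overlap, with medians closest for TEAD4 (8.05 and 8.29) and farthest apart for TAZ (7.87 and 8.64). The blue boxes sit lower (YAP median 6.39).

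JUN-free regions also reached the top of each list. Of the 770 YAP peaks in the top 10% by enrichment (9.99% of the list), 154 lay in JUN-free regions (20.0%, 17.2 to 23.0) and 611 in 4-factor regions. Of 979 such TAZ peaks, 170 were in JUN-free regions (17.4%, 15.0 to 19.9), and of 840 TEAD4 peaks 157 were (18.7%, 16.1 to 21.5). JUN-free regions held 15.7%, 12.4% and 14.4% of the whole YAP, TAZ and TEAD4 lists. A top 10% YAP peak occurred in 12.7% of JUN-free (10.9 to 14.7) and 14.3% of 4-factor regions (13.2 to 15.3). For TAZ these rates were 14.1% (12.1 to 16.1) and 18.1% (16.9 to 19.3). For TEAD4 they were 13.0% (11.1 to 15.0) and 15.5% (14.5 to 16.6). Per region, top 10% peaks were thus less frequent at JUN-free regions, with intervals apart for TAZ only. In the top 1%, JUN-free regions held 13 of the 76 YAP peaks (17.1%), 14 of the 97 TAZ peaks (14.4%) and 15 of the 84 TEAD4 peaks (17.9%). The 4-factor regions held all the others. Among the 437 regions where all 3 proteins were in the top 10% of their lists, 76 lacked JUN (17.4%, 14.0 to 21.3). Among the 898 where all 3 were in the lower 50%, 232 did (25.8%, 23.0 to 28.8). The 22% over all regions lies between these shares.

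When regions with all 3 proteins were split into 10 equal parts by the enrichment of 1 of them, the share without JUN spread widest for TAZ. It was 28.5% (24.8 to 32.5) in the weakest part by TAZ and 16.7% (13.7 to 20.1) in the strongest. By YAP the corresponding shares were 22.7% (19.3 to 26.5) and 18.9% (15.7 to 22.4), and by TEAD4 22.2% (18.8 to 25.9) and 18.0% (14.9 to 21.5), with intervals that overlap. Ranks are places within a factor's own list, and the lists differ in length (7709 YAP, 9798 TAZ and 8406 TEAD4 peaks). How far list length bears on the ranks was not tested. In fold enrichment, the median ratio of YAP to TAZ was 0.9998 at JUN-free and 0.963 at 4-factor regions. TAZ stood higher in its list than YAP did in its own at 62.7% of JUN-free regions (59.9 to 65.4) and 71.5% of 4-factor regions (70.2 to 72.9). TEAD4 was the best ranked of the 3 at 42.6% of JUN-free (39.8 to 45.4) and 37.7% of 4-factor regions (36.2 to 39.1). TAZ was the best ranked at 37.0% of JUN-free (34.2 to 39.8) and 45.4% of 4-factor regions (43.9 to 46.9). Across the 1209 JUN-free regions the enrichments of YAP and TAZ had a Spearman's rho of 0.88. With TEAD4, rho was 0.56 for YAP and 0.57 for TAZ. Going by raw file names and labels, the libraries of both coactivators came from the same sequencing run and were set against the same rabbit IgG, and their closer relation cannot be told apart from that. The YAPTAZ tag bears on this relation and on the ranks of YAP against TAZ as well, since input shared by both lists is not told apart from binding at the same sites.

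The 10 JUN-free regions with the best mean rank of the 3 enrichments lay on 9 chromosomes, and every one of their peaks was in the top 2.21% of its list. The first was on chromosome 7 (5630858 to 5631545). YAP was enriched 28.8-fold there, TAZ 27.3-fold and TEAD4 31.2-fold, the highest TEAD4 value of any JUN-free region. Its 3 summits fell within 2 bp, and the nearest JUN peak, 16.7-fold enriched, was 3224 bp away. The 3 proteins were thus mapped to practically the same base, beside but not under a JUN peak.

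The second lay on chromosome 1 (205270178 to 205271314), with 27.2-fold for YAP, 26.7-fold for TAZ and 21.0-fold for TEAD4, and its nearest JUN peak, 1944 bp away, lay in a 4-factor region. The eighth, on chromosome 5 (37272353 to 37273144), held the most enriched YAP peak (30.2-fold) and the most enriched TAZ peak (29.8-fold) of all JUN-free regions, with TEAD4 at 18.6-fold. Its nearest JUN peak was 259803 bp away. High enrichment of YAP, TAZ and TEAD4 thus occurred both beside and far from listed JUN peaks.

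The ninth, on chromosome 13 (88651308 to 88652280), was still more isolated, with the nearest JUN peak at 874476 bp YAP at 19.8-fold, TAZ at 21.4-fold and TEAD4 at 26.4-fold. The seventh was the opposite case. On chromosome 22 (39571710 to 39573060), with 24.3-fold YAP, 25.5-fold TAZ and 20.5-fold TEAD4, it ended 47 bp from a 4-factor region whose JUN peak was enriched 28.4-fold and lay 98 bp away. The last of the 10, on chromosome 12 (46887912 to 46888877), likewise had a 4-factor region 816 bp away, and TEAD4 at 27.1-fold.

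The other 4 of these regions had enrichments between 21.8 and 28.0 for any factor. They were on chromosome 1 (109044704 to 109046290), chromosome 2 (151267223 to 151268013), chromosome 4 (102874914 to 102875674) and chromosome 11 (73019504 to 73020717), with the nearest JUN peak at 80658, 60674, 22499 and 24399 bp. In all, 6 of the 10 had no JUN peak within 10 kb. Summits of the 3 proteins spanned 2 to 24 bp in these regions.

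The summits of YAP, TAZ and TEAD4, the positions of highest signal, nearly coincided in JUN-free regions. The rule bears on summit distances in part, since YAP, TAZ and TEAD4 peaks must join by their own overlap in a JUN-free region, while in a 4-factor region a JUN peak can join them. YAP and TAZ summits stood a median of 14 bp apart (12 to 14), YAP and TEAD4 summits 13 bp (12 to 14) and TAZ and TEAD4 summits 12 bp (11 to 13). In 4-factor regions the medians were 16, 17 and 17 bp. The unexplained YAPTAZ tag bears on YAP to TAZ distances and on spans of the 3 summits, also in the regions named above. Input shared by both lists is not told apart from binding at the same place. The span from the first to the last of the 3 summits had a median of 22 bp (21 to 24) at JUN-free and 30 bp (29 to 30) at 4-factor regions. It was at most 50 bp at 86.2% of JUN-free (84.1 to 88.1) and 75.7% of 4-factor regions (74.4 to 77.0). The span was shorter at JUN-free regions in each of 10 equal parts by YAP, by TAZ and by TEAD4 enrichment, and on 22 of 23 chromosomes, with a tie on the other. In 4204 of the 4284 4-factor regions the YAP, TAZ and TEAD4 peaks joined without JUN, and there, in a comparison added after seeing the data, the median span was 29 bp (28 to 30) and 76.2% of spans were at most 50 bp (74.8 to 77.4). No factor stood regularly in the middle of a JUN-free region. The TEAD4 summit lay strictly between the others at 32.3% (29.6 to 35.0), TAZ at 30.8% (28.2 to 33.5) and YAP at 28.8% (26.2 to 31.4).

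Peaks of all 3 proteins were narrower at JUN-free than at 4-factor regions. Narrow peaks also occurred with JUN listed. In regions with YAP, TAZ and JUN but not TEAD4, median widths were 523 bp (512 to 532) for YAP and 581.5 bp (570 to 596) for TAZ. YAP peaks had a median width of 510 bp (499 to 519) at JUN-free and 606 bp (598 to 612) at 4-factor regions. TAZ peaks measured 541 bp (528 to 557) at JUN-free and 663 bp (655 to 672) at 4-factor regions, and TEAD4 peaks 483 bp (471 to 495) at JUN-free and 560 bp (554 to 566) at 4-factor regions. The order was the same at similar fold enrichment: in each of 10 equal parts by a factor's own enrichment its median peak width was smaller at JUN-free regions. The differences, JUN-free minus 4-factor, ran from -126 to -43.5 bp for YAP, from -137 to -87.5 bp for TAZ and from -80.5 to -34.0 bp for TEAD4. These parts were matched on fold alone, and the median −log10 p was also lower at JUN-free regions in 10 of the 10 parts for YAP, 10 for TAZ and 7 for TEAD4. The bearing of −log10 p on width was not tested. A wider peak has more room to overlap a JUN peak. Chosen instead on peaks narrowed to 200 bp around their summits, with deposited widths kept, 1456 JUN-free regions had medians of 533 bp for YAP, 574 bp for TAZ and 502.5 bp for TEAD4, against 595, 649 and 553 bp at 3966 4-factor regions. This alternative was chosen after seeing the data.

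**Figure D2:**
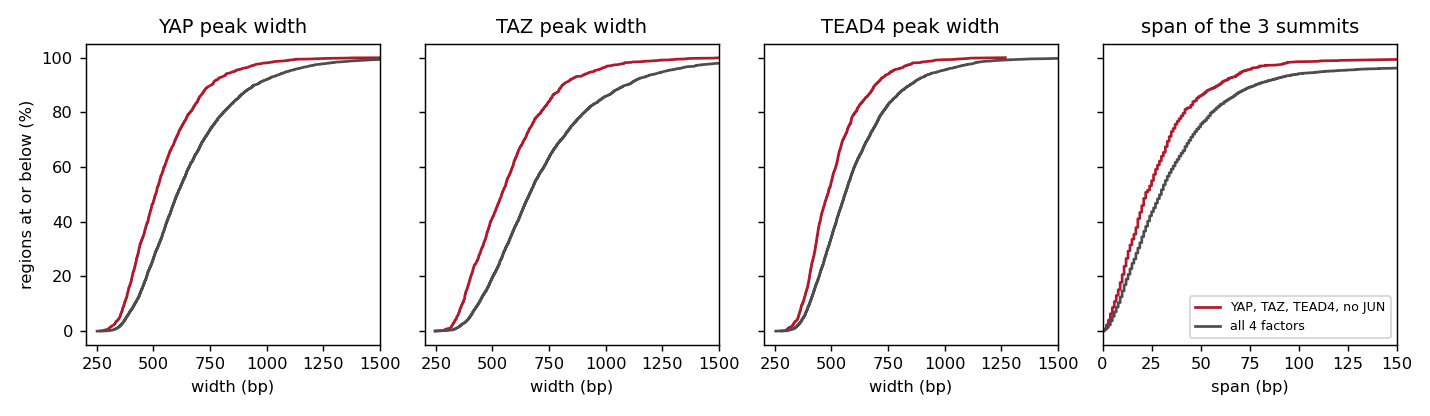
Cumulative share of JUN-free regions (red, n = 1209) and 4-factor regions (grey, n = 4284) by the width in bp of their most enriched YAP, TAZ or TEAD4 peak and by the distance in bp spanned by the 3 summits; the horizontal axes end before the widest regions. The red curves lie left of the grey ones in every panel (median TAZ width 541 and 663 bp, median span 22 and 30 bp).

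The strength of JUN at 4-factor regions gives a scale on which the JUN-free regions can be placed. The weakest listed JUN peak had a −log10 p of 54.4, while the YAP, TAZ and TEAD4 lists went down to 24.3, 22.0 and 24.7. The JUN list thus ended at a higher −log10 p than the others, and what set this end was not tested. The 4-factor regions were divided into 10 equal parts by JUN −log10 p. The median TAZ peak width was 541 bp without JUN, 591 bp in the weakest part, 615 bp in the fifth and 793 bp in the strongest. For YAP it was 510, 553, 581.5 and 713 bp, and for TEAD4 483, 518, 539 and 621 bp. JUN-free regions thus took the place below the weakest part for the width of all 3 proteins. As said above, a wider peak has more room to overlap a JUN peak. These parts were also not matched on enrichment, and the bearing of either on this order was not tested.

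Enrichment moved less along this scale. The YAP median was 7.92 without JUN, 7.90 in the weakest part and 9.59 in the strongest, and the TEAD4 median was 8.05, 8.08 and 8.79. For TAZ it was 7.87, 8.14 and 10.1. The span of the 3 summits was 22 bp without JUN, 27 bp in the weakest part and 32 bp in the strongest. For YAP and TEAD4, the median of the weakest part thus lay inside the interval of the JUN-free median, and for TAZ above it.

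**Figure D3:**
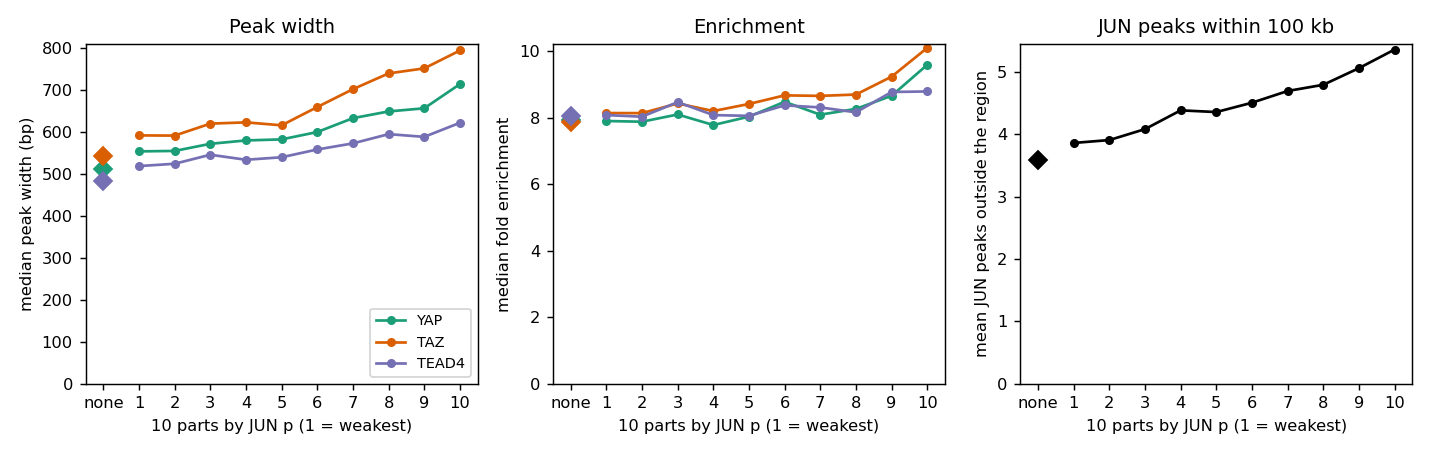
Median peak width in bp (left) and median fold enrichment (middle) of YAP, TAZ and TEAD4, and mean number of JUN peaks outside the region within 100 kb (right), in JUN-free regions (diamonds, "none", n = 1209) and in 4-factor regions split into 10 equal parts by JUN −log10 p (circles, 428 or 429 regions each). Widths and JUN peak numbers are lowest at the diamonds and highest in part 10 (TAZ width 541 and 793 bp, JUN peaks 3.58 and 5.35), while enrichment changes little up to part 8 (TAZ medians between 8.14 and 8.70 in parts 1 to 8).

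How close JUN came to the JUN-free regions was asked next. The nearest JUN peak lay at a median of 15467 bp (13119 to 18556) from a JUN-free region. From a 4-factor region the nearest JUN peak outside it lay at 9590 bp (9059 to 10211), and from a region with YAP, TAZ and JUN but not TEAD4 at 10241 bp. JUN-free regions had the longer median on 20 of 23 chromosomes when set against 4-factor regions. A JUN peak was found within 1 kb of 114 JUN-free regions (9.43%, 7.84 to 11.2), within 10 kb of 498 (41.2%) and within 100 kb of 1039 (85.9%). At 4-factor regions another JUN peak lay within 1 kb at 12.1% (11.1 to 13.1), within 10 kb at 51.2% and within 100 kb at 91.9%.

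The 114 JUN peaks within 1 kb were of ordinary strength. Their median enrichment was 12.1 against 11.7 for the whole JUN list, with a range of 5.67 to 29.1. Of the 114, 60 stood alone, with none of the other 3 proteins, 29 belonged to 4-factor regions and 11 to regions with YAP and TAZ but not TEAD4. At these places a listed JUN peak lay beside the site of the 3 proteins. The class counts are not set against the shares of the same classes over the whole JUN list, so no tendency is read from them.

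Under the 1 bp overlap rule, the boundary between both kinds of region was seldom a matter of a few bases. Just outside it, the JUN-free region nearest to JUN was on chromosome 1 (207193293 to 207193958), 12 bp from a 14.7-fold JUN peak, with 7.27-fold YAP, 7.54-fold TAZ and 5.69-fold TEAD4. The next were on chromosome 21 (46348558 to 46349192, 32 bp) and chromosome 15 (36882177 to 36882836, 63 bp). Only 8 JUN-free regions lay within 100 bp of JUN. Other overlap rules moved the boundary. They left 1455 regions JUN-free with summits within 200 bp and 1583 with a reciprocal overlap of 50%, against 1209 here.

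Just inside the boundary, a 4-factor region on chromosome 12 (54238543 to 54239757) shared 5 bp with a 9.28-fold JUN peak. It had 19.4-fold YAP, 19.0-fold TAZ and 25.2-fold TEAD4. The next, on chromosome 7 (46948190 to 46949952) and chromosome 15 (44393977 to 44395522), shared 27 and 151 bp with JUN. Of 4284 4-factor regions, 2 shared at most 100 bp, and the median was 660 bp. The JUN summit was over 200 bp from every other summit in 193 of them. The median distance from the JUN summit to the nearest other summit was 12 bp.

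The most remote JUN-free regions were on chromosome X (125784972 to 125785314), 2095532 bp from JUN, on chromosome 4 (63929451 to 63929903), 1140193 bp away, and on chromosome 5 (12245391 to 12246072), 1113338 bp away. The first had 7.92-fold YAP, 6.72-fold TAZ and 6.62-fold TEAD4. The second had 8.75-fold YAP, 6.06-fold TAZ and 9.13-fold TEAD4. The third had 10.6-fold YAP, 13.0-fold TAZ and 8.74-fold TEAD4, each above the JUN-free median.

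Peaks of every factor, and not JUN alone, were sparser around JUN-free regions. Within 100 kb of the centre and outside the region, they had on average 3.58 JUN peaks against 4.50 around 4-factor regions, a ratio of 0.80. For YAP the mean was 1.30 around JUN-free and 1.63 around 4-factor regions (ratio 0.80), for TAZ 1.63 and 2.01 in the same order (0.81), and for TEAD4 1.40 and 1.71 (0.82). No JUN peak lay in this window at 14.1% of JUN-free regions (12.2 to 16.2) and 8.19% of 4-factor regions (7.39 to 9.06). The mean number of JUN peaks was lower around JUN-free regions on 21 of 23 chromosomes. Regions with YAP, TAZ and JUN but not TEAD4 had 4.16 JUN, 1.39 YAP, 1.71 TAZ and 1.42 TEAD4 peaks around them. Among 4-factor regions the mean number of surrounding JUN peaks was 3.86 in the weakest and 5.35 in the strongest part by JUN.

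**Figure D4:**
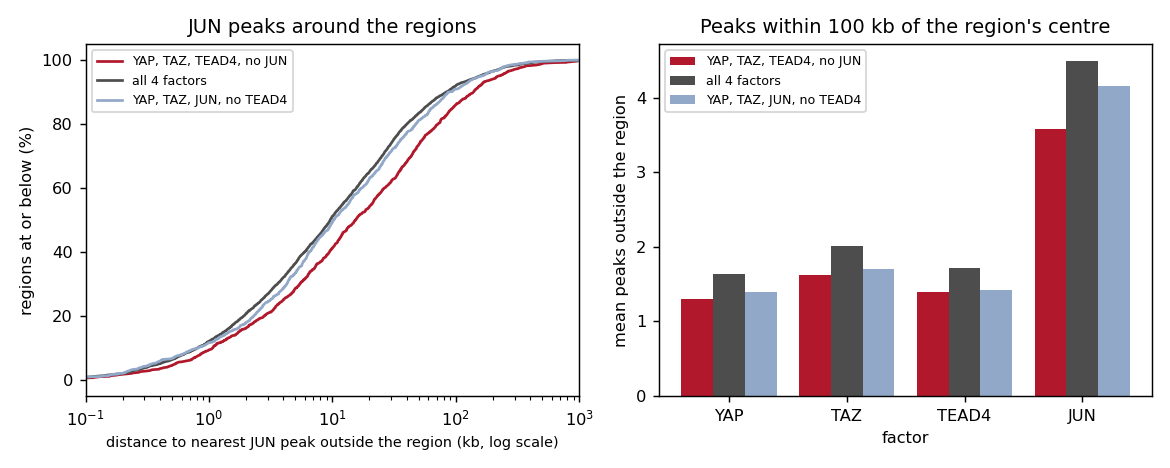
Left, cumulative share of regions by distance to the nearest JUN peak outside the region (kb, log scale, drawn from 0.1 to 1000 kb). Right, mean number of peaks of each factor within 100 kb of the region's centre and outside the region. JUN-free regions (red, n = 1209) are farther from JUN than 4-factor regions (grey, n = 4284; medians 15467 and 9590 bp) and have fewer peaks of all 4 factors around them (3.58 and 4.50 for JUN); blue marks regions with YAP, TAZ and JUN but not TEAD4 (n = 1248).

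From a JUN-free region, the nearest of the 4284 4-factor regions was at a median of 130270 bp and the nearest of the other JUN-free regions, which are fewer, at 529600 bp. The nearest other region with YAP, TAZ and TEAD4 lacked JUN for 24.2% of JUN-free regions (21.8 to 26.7) and 20.4% of 4-factor regions (19.2 to 21.7), against 22% over all such regions. For neighbours within 10 kb the share was 18.3% (37 of 202, 13.2 to 24.4) for JUN-free and 18.7% (169 of 902, 16.2 to 21.4) for 4-factor regions. Within 100 kb it was 21.1% (127 of 603, 17.9 to 24.5) for JUN-free and 17.9% (456 of 2543, 16.5 to 19.5) for 4-factor regions. The intervals stand apart over all distances and overlap within 10 and 100 kb. They are too narrow, since regions that are each other's nearest count for both, and the differences were not tested.

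Of the 1-Mb bins with JUN-free regions, 645 held 1, 201 held 2, 36 held 3, 7 held 4, 4 held 5 and 1 held 6. The fullest was on chromosome 15 (67000001 to 68000000), where 6 JUN-free regions lay among 9 4-factor regions. Its YAP enrichments ran from 5.61 to 28.7, its TAZ enrichments from 6.66 to 26.3 and its TEAD4 enrichments from 7.32 to 20.3, and every one of the 6 had a JUN peak between 879 and 13370 bp away. Bins with 5 were on chromosome 1 (85000001 to 86000000, beside 6 4-factor regions), chromosome 2 (235000001 to 236000000, beside 8), chromosome 16 (66000001 to 67000000, beside 3) and chromosome 17 (57000001 to 58000000, beside 4).

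All 23 chromosomes in the lists carried JUN-free regions, from 14 on chromosomes 21 and 22 to 98 on chromosomes 1, 3 and 6. Read against the 22% over all chromosomes, the share without JUN was lowest on chromosome 5, with 60 of 361 regions (16.6%, 12.9 to 20.9), and highest on chromosome X, with 28 of 80 (35.0%, 24.7 to 46.5). Chromosome 1, with 98 of 537 (18.2%, 15.1 to 21.8), was the other whose interval lay wholly below 22%. For the other 20 chromosomes the interval included that share. The wider set of regions with any of YAP, TAZ and TEAD4 had X above, and 5 and 1 below, its own share over all chromosomes, with 41.7% lacking JUN on chromosome X, 25.1% on chromosome 5 and 29.3% on chromosome 1, against 30.2% over all chromosomes. In this set X was again the highest, but the lowest was chromosome 10 (21.6%), and chromosome 1 lay near the share over all. The set includes the regions with all 3 proteins, so it leans with them in part by construction. It cannot tell whether the shares on chromosomes X, 5 and 1 are particular to those regions, and this was not tested. The stretch of chromosome 6 between 26 and 29 Mb held 3 JUN-free and 3 4-factor regions.

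**Figure D5:**
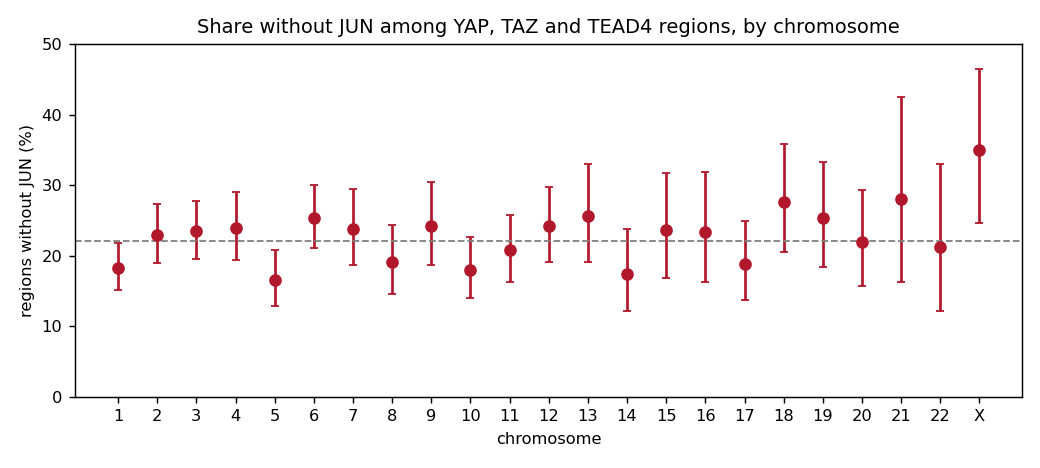
Share of regions with YAP, TAZ and TEAD4 that lacked JUN on each chromosome (points, with exact 95% binomial intervals); the dashed line is the share over all 5493 such regions. Chromosomes 1 and 5 lie below the line and chromosome X above it with their whole intervals (18.2%, 16.6% and 35.0%), and the other 20 intervals cross it.

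Whether weaker JUN candidates existed at JUN-free regions can be bounded from the numbers in the peak names. In the JUN list these numbers rose along every chromosome without exception and reached 96825 for 24554 listed peaks, so at least 72271 numbers are unlisted. If the numbers count all candidate peaks in order, no candidate can lie between listed peaks with consecutive numbers. Of 1205 JUN-free regions with a listed JUN peak on both sides, 16 (1.33%, 0.761 to 2.15) stood between consecutive numbers and so, on that reading, held no numbered JUN candidate. JUN signal that was given no number cannot be seen this way. The same share is not given for other regions, so 1.33% is not read as a trait of JUN-free regions. These 16 lay on 10 chromosomes, 258 to 27130 bp from a listed JUN peak, and their median enrichment was 8.84 for both YAP and TAZ and 7.93 for TEAD4. The best ranked was on chromosome 1 (246598727 to 246599392), with 11.8-fold YAP, 12.4-fold TAZ and 14.7-fold TEAD4. At the remaining regions 1 to 35 numbers were missing, with a median over the 1205 of 5, and whether an unlisted JUN candidate lay at the region cannot be told from the lists.

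How many regions counted as JUN-free depended on how long the JUN list was. With the JUN list alone cut to its 7709 strongest peaks, the length of the YAP list, 3137 of 5494 regions with YAP, TAZ and TEAD4 lacked JUN (57.1%). In an alternative added after seeing the data, the YAP, TAZ and TEAD4 lists were cut at the −log10 p of the weakest JUN peak. The JUN list stayed whole, and 349 of 1968 regions with YAP, TAZ and TEAD4 lacked JUN (17.7%, 16.1 to 19.5). This value does not bear on the length of the JUN list. The YAP and TAZ lists also differ from the JUN list in sequencing run and in the IgG they were called against, and neither can be told apart from the factor.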

How the data were processed

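ChIP-seq libraries of MDA-MB-231 were grouped by the antibody or factor in their labels. The submitters' processing notes name MACS2 2.0.10, Bowtie 0.12.7, CASAVA, SAMtools and the build hg19, with no role for each. Per the labels, peaks were called within the IDR framework, which keeps peaks that recur between replicates, at a value of 0.01, against pooled IgG: rabbit for YAP and TAZ, mouse for TEAD4 and JUN. For each peak the authors deposited a fold enrichment over IgG (a ratio), a p-value as −log10, and a score and q-value that were not used. Depth is unknown here.

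Peaks overlapping by at least 1 bp were merged with Python 3.11.15, pandas 2.3.3 and SciPy 1.17.1, and the most enriched peak of a factor stood for it in a region. The merging, classes, distances and number gaps were tested on simulated lists. Distances count the bases between region and peak. Regions named are the 10 with the best mean rank, the most enriched of each factor, the 3 nearest to and the 3 farthest from JUN, the 3 4-factor regions sharing fewest bases with JUN, the 1-Mb bins with the most members, and the best ranked of the 16 between consecutive JUN numbers, the last chosen after values were seen. Members, lists and alternatives were chosen with earlier results of these data known. Positions are on hg19. The gene annotation at hand is of another build (GRCh38.p14), so regions carry no gene names, and start sites, gene lists, motifs and DNA sequence were not analysed here.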

Additional observations from a re-analysis of the deposited data

How the results depend on the processing

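Over 13 results and 53 alternative values, 37 lay inside the 95% interval of the value reported above or, for the number of regions, changed by less than 1.5 times. All alternatives for the median enrichments (members with 1 peak of each factor, mean over peaks, no JUN within 10 kb, chromosomes or the chromosome 6 interval left out) and for the summit distances did, as did the share between consecutive JUN numbers. The share without JUN, 22.0%, ranged from 21.8% to 22.4% with each chromosome left out. It moved with every change of overlap rule: 29.6% with a reciprocal overlap of 50% (1583 regions), 26.8% with summits within 200 bp (1455) and 26.9% with peaks narrowed to 200 bp (1456). It was 37.2% with the stronger 50% of each list (990 regions) and 55.7% with lists of equal length (2782 regions). With the JUN list alone shortened it was 57.1% (3137 regions). With the YAP, TAZ and TEAD4 lists cut at the weakest JUN p it was 17.7% (349 regions). Asking for no JUN peak within 1 kb left 19.9% (1095 regions), and within 10 kb 12.9% (711 regions). Median widths moved to 533 bp for YAP, 574 bp for TAZ and 502.5 bp for TEAD4 when members were chosen on narrowed peaks. A shorter JUN list leaves more regions without JUN, and a wider JUN-free zone leaves fewer, by construction. For the other changes the cause was not tested.

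No paired analysis was possible because each factor has 1 list for both replicates. Replicates could not be left out in turn for the same reason. The planned distances to start sites and searches for AP-1 and TEAD motifs were not run. Read depth is unknown, so its limits cannot be stated.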
